A study of Homo sapiens with 9 samples.

Results

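The genes of fatty acid and triglyceride synthesis were examined across PC3 and LNCaP prostate cancer cells. The members were the rows of the deposited gene counts that carry 48 listed symbols, covering precursor supply, synthesis, desaturation, elongation, activation, glycerolipid assembly and lipid droplet coats. All 48 symbols were found among the 28216 genes of the table. Poly(A) RNA was sequenced from 9 libraries, 3 per group. PC3, a line from a bone metastasis, was untreated and grown in F12K medium with 10% FBS. LNCaP, a line from a lymph node metastasis (clone FCG), was kept in RPMI without phenol red, with 10% charcoal-stripped FBS, for 24 h and then for 48 h with 10 nM androgen or with the vehicle, 0.01% ethanol. The labels name the androgen dihydrotestosterone (DHT), whereas the study's text names R1881. No group carries a genetic change made for the study. Cell line and medium changed together between PC3 and LNCaP, so their contributions cannot be told apart, and the labels do not say whether replicates were separate cultures, and where they were not, the p-values measure only the spread between these libraries.

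Cells build fatty acids in the cytosol from acetyl-CoA. ATP citrate lyase frees acetyl-CoA from citrate that the mitochondrial carrier exports, acetyl-CoA carboxylase turns it into malonyl-CoA, and fatty acid synthase joins these units into palmitate with NADPH from malic enzyme and other sources. Desaturases and elongases then shape the chain, acyl-CoA synthetases activate it, and acyltransferases, lipins and DGAT enzymes place it on glycerol to form triglyceride, which is stored in droplets coated by perilipins. In prostate cancer this route is known for its response to androgen and for its control by the transcription factor SREBP, which SCAP escorts and INSIG retains in the endoplasmic reticulum.

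Gene counts per library ranged from 17397706 to 25640325, and levels are given in CPM, counts relative to the library total, after TMM scaling over all 9 libraries. A count of 3, taken as the upper limit for a count of 0, corresponded to 0.118 to 0.160 CPM, and this limit covers counting error only. The lines carried the markers of their labels. KLK3, which encodes the secreted luminal protease prostate-specific antigen, had 2 to 20 counts per library in PC3 and at least 9831 in LNCaP, whereas VIM, the mesenchymal filament vimentin, had at least 26319 counts in PC3 and 23 to 272 in LNCaP. The adipocyte marker ADIPOQ and the leukocyte marker PTPRC had at most 7 counts in any library, the endothelial marker PECAM1 47 to 85 counts in PC3 and at most 1 in LNCaP, and the collagen gene COL1A1 255 to 1013 counts in every library. A trace of each line's own genes was counted in the other: over 240 genes high in PC3 and nearly absent from LNCaP, the LNCaP libraries held 0.311% to 0.809% of the PC3 level, the most in androgen-treated replicate 1, and over 117 genes of the opposite kind the PC3 libraries held 0.564% to 0.632%. These genes had a mean above 50 CPM in 1 line and under 2% of it in the other, so the choice caps the trace. The LNCaP mean was taken over both treatment groups.

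The 250 bases before the start of 6 members are shown because these members form pairs of related enzymes whose levels differed in opposite directions between groups: SCD and SCD5 with androgen, and ACACA against ACACB and ELOVL7 against ELOVL4 between the lines. The sequences are RefSeq's, read 5′ to 3′ on the strand of the gene in GRCh38.p14, and capitals mark CCAAT (or its reverse complement ATTGG), the NF-Y box, and CACGTG, the E-box. SCD lies on the plus strand of chromosome 10 (window chr10:100346983-100347232), SCD5 on the minus strand of chromosome 4 (chr4:82798797-82799046), ACACA on the minus strand of chromosome 17 (chr17:37406837-37407086), ACACB on the plus strand of chromosome 12 (chr12:109116337-109116586), ELOVL7 on the minus strand of chromosome 5 (chr5:60844270-60844519) and ELOVL4 on the minus strand of chromosome 6 (chr6:79947554-79947803).
SCD: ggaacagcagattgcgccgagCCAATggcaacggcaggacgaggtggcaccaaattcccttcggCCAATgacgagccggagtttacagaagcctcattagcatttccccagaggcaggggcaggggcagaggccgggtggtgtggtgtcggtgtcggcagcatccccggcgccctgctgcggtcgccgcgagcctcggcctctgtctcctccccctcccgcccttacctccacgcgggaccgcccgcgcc
SCD5: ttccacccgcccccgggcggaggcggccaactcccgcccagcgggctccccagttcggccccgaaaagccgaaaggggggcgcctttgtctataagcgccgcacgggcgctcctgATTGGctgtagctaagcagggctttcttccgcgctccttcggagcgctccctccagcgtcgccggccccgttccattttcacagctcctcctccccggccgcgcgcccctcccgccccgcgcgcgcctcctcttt
ACACA: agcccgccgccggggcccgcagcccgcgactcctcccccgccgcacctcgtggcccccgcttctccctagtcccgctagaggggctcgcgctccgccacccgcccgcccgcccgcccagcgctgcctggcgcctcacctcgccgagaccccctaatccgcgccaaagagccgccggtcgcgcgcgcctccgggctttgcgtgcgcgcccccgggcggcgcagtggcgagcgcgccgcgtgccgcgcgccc
ACACB: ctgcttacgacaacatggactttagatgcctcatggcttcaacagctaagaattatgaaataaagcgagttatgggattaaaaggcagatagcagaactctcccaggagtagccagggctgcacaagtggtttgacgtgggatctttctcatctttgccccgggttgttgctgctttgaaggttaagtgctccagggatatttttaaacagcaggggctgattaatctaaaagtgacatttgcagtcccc
ELOVL7: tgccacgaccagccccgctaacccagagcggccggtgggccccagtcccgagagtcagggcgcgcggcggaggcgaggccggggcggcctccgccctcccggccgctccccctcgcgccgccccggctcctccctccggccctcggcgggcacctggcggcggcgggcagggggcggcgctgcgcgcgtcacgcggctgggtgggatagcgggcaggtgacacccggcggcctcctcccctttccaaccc
ELOVL4: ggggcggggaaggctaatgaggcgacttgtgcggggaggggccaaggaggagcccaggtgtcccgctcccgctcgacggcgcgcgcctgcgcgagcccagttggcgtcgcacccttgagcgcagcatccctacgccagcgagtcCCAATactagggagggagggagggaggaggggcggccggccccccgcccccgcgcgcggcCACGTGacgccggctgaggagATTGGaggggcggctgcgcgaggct

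RefSeq promoters were at hand for 40 of the 48 members, the others being FASN, OXSM, LPIN3, PLPP1, DGAT1, DGAT2, MOGAT2 and ACSS3. Both strands of the 250 bases were searched, and matches of different motifs may share bases, as those of CCAAT and the GC box do before ELOVL1. CCAAT stood in 19 of the 40 windows (47.5%) against 32.0% of the 35116 windows of the whole promoter set. That set was not reduced to 1 window per gene, as the members were, or to tested genes, so the shares are not matched. GGGCGG, the GC box, stood in 31 (77.5%) against 42.6%, and CACGTG in 3 (7.5%), those of ELOVL4, ELOVL5 and PLIN2, against 6.35%. TCACNCCAC, the core of a sterol regulatory element, was found in 1 window, that of MID1IP1 (2.5%), against 0.883%. AGAACA, the hexamer of steroid receptor elements, was in 0 of the 40 windows against 12.4% of all, which says only that these letters are not in these windows. SCD held CCAAT at 2 places and SCD5 at 1, ELOVL4 held it at 2 places beside its E-box, and the windows of ACACA, ACACB and ELOVL7 held neither motif. A match is a description of the sequence and no evidence of binding.

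A gene was tested where it exceeded 3 CPM in at least 3 libraries of a comparison, and was called where edgeR's quasi-likelihood test gave a Benjamini-Hochberg adjusted p-value over all tested genes under 0.05 and the fold change was at least 2. With androgen, 9 of the 38 tested members rose (23.7%) and 2 fell (5.26%), where 6.54% of all 11697 tested genes rose and 7.49% fell. Against androgen-treated LNCaP cells, 19 of 43 tested members were lower in PC3 (44.2%) and 8 higher (18.6%), where 22.1% of all 12541 tested genes were lower and 24.0% higher. Against vehicle-treated LNCaP cells, 16 of 42 were lower in PC3 (38.1%) and 12 higher (28.6%), where the shares of all 12686 tested genes were 21.0% and 22.2%. The median log2 fold change of the tested members was 0.46 with androgen against -0.01 over all genes, -0.89 against 0.04 for PC3 over androgen-treated cells, and -0.11 against 0.03 for PC3 over vehicle-treated cells. The comparisons share libraries in pairs, so they are not independent of each other. A gene that exceeded 3 CPM only in the group where it was higher, as MOGAT2 did with androgen, had its direction set by this filter. In such bulk libraries, fewer expressing cells and less RNA per cell cannot be told apart.

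**Figure D1:**
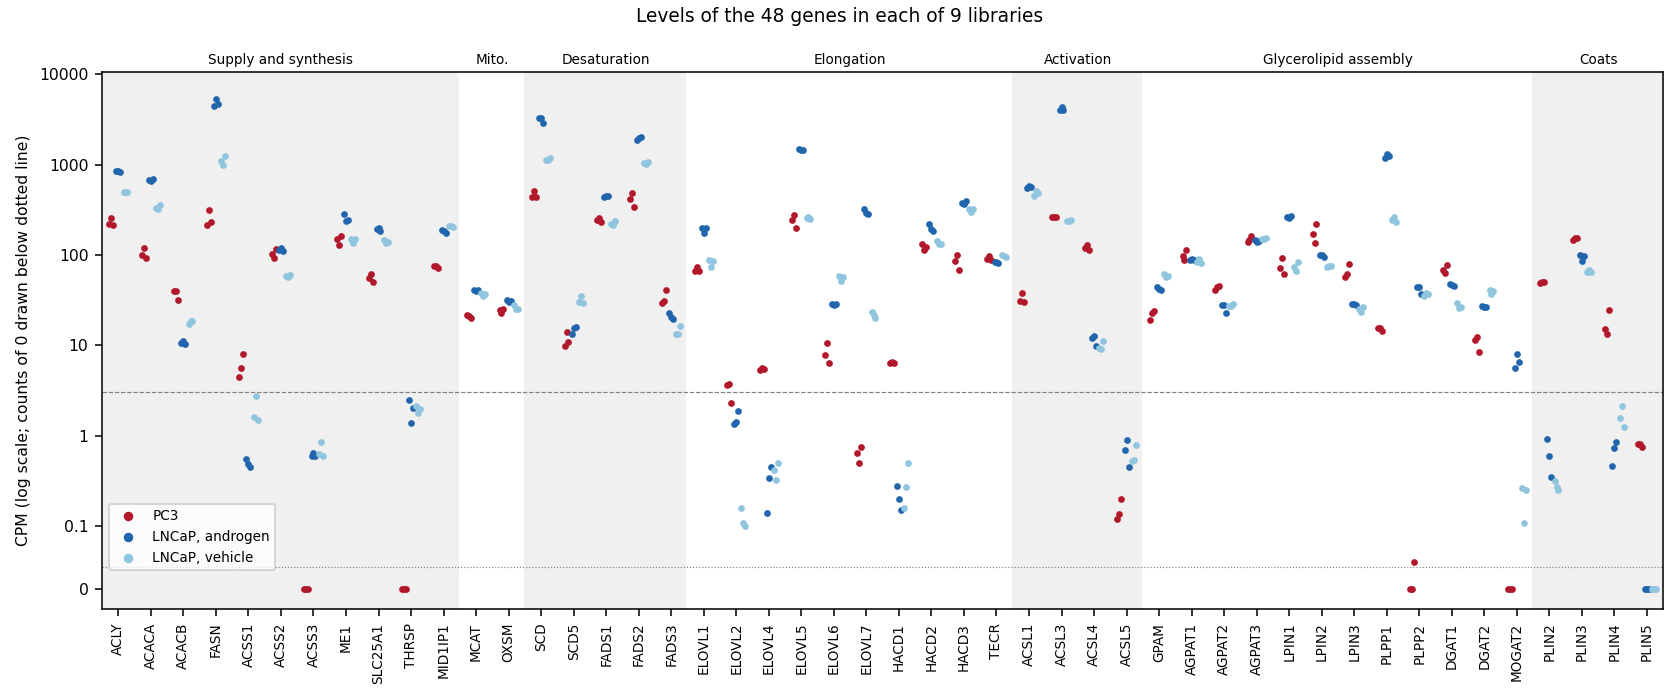
CPM (log scale) of each of the 48 genes in each of the 9 libraries, grouped by role, with counts of 0 drawn below the dotted line and the testing limit of 3 CPM dashed. The highest values are those of FASN, ACSL3 and SCD in androgen-treated LNCaP cells, and ELOVL4, HACD1 and the coats PLIN2, PLIN4 and PLIN5 lie above both LNCaP groups in PC3.

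FASN, fatty acid synthase (chr17:82078338-82098294, minus strand), differed between all groups. Its CPM were 4512, 5276 and 4754 in the 3 androgen-treated libraries, 1097, 984 and 1240.2 with vehicle and 215, 312 and 234 in PC3. The groups did not overlap. FASN rose 4.29-fold with androgen (log2 2.10, SE 0.080, adjusted p = 8.18e-11), and in PC3 it was 19.3-fold below the androgen-treated level (adjusted p = 1.96e-07) and 4.44-fold below the vehicle level (adjusted p = 4.98e-06).

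The steps ahead of FASN had smaller differences with androgen. ACLY, which makes cytosolic acetyl-CoA, stood at 852, 860.0 and 832 CPM with androgen, 497, 496 and 503 with vehicle and 220.1, 260.0 and 215 in PC3. ACACA, the acetyl-CoA carboxylase of lipogenic tissue, stood at 671, 667 and 695 CPM with androgen, 332, 320.5 and 356 with vehicle and 99.5, 119.5 and 92.6 in PC3. For both genes every androgen-treated library exceeded every vehicle library, and every PC3 library lay below both. The androgen difference was 1.67-fold for ACLY and 1.98-fold for ACACA (adjusted p = 7.43e-10 and 5.28e-10), just under the fold minimum for ACACA, which passed it in 3 alternative analyses. PC3 was 3.69-fold and 6.58-fold lower than androgen-treated cells, and 2.18-fold and 3.29-fold lower than vehicle-treated cells, all 4 called.

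ACACB, the carboxylase at the outer mitochondrial membrane whose malonyl-CoA restrains fatty acid oxidation, ran the other way. It had 40.1, 40.0 and 31.4 CPM in PC3, 10.7, 11.1 and 10.3 with androgen and 17.4, 18.4 and 18.7 with vehicle. PC3 was 3.44-fold above androgen-treated cells (adjusted p = 2.67e-06) and 2.02-fold above vehicle-treated cells (adjusted p = 6.17e-05). The latter call lay at the fold minimum and was lost in 4 of the alternative analyses. Per kilobase of exon, ACACB made up 23.3% of the carboxylase transcripts in the median PC3 library, 4.49% with vehicle and 1.41% with androgen.

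Among the suppliers of carbon and reducing power, SLC25A1, the mitochondrial citrate carrier, had 186 to 199 CPM with androgen, 135 to 145 with vehicle and 50.5 to 61.0 in PC3. It was called lower in PC3 in both comparisons (3.49-fold and 2.54-fold), whereas the androgen difference was 1.36-fold (adjusted p = 4.52e-07). ACSS2, which activates acetate in cytosol and nucleus, had 114, 119 and 109.7 CPM with androgen, 58.3, 56.8 and 59.9 with vehicle and 101, 93.5 and 118 in PC3. Its level in PC3 overlapped that with androgen and exceeded that with vehicle, by 1.76-fold (adjusted p = 7.37e-05). The androgen difference of ACSS2 was 1.92-fold (adjusted p = 8.89e-10). ME1, the cytosolic malic enzyme, was at 235 to 283 CPM with androgen, 136 to 152 with vehicle and 128 to 161 in PC3. It was 1.70-fold higher with androgen than with vehicle (adjusted p = 8.23e-08), and the 95% interval of its log2 difference between PC3 and vehicle-treated cells ran from -0.24 to 0.21. None of the ACSS2 and ME1 differences reached the fold minimum.

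Further suppliers were called between the lines. MID1IP1, a helper of carboxylase polymerisation, was 2.48-fold and 2.84-fold lower in PC3. ACSS1, the mitochondrial acetate-activating enzyme, was higher in PC3 (4.51 to 7.95 CPM against 0.447 to 0.555 with androgen and 1.49 to 2.72 with vehicle), by 11.9-fold and 3.07-fold. THRSP, the relative of MID1IP1, was tested nowhere. It had 0 counts in all PC3 libraries and 28 to 53 counts per LNCaP library, so that PC3 was at least 15.7-fold lower than androgen-treated and at least 15.8-fold lower than vehicle-treated cells, against 3 counts per library. ACSS3 had 0 counts in PC3 and 12 to 16 per LNCaP library, and 97.2% of the reads at this gene lay on the opposite strand. MCAT and OXSM, which serve the separate mitochondrial pathway, were not called in any comparison, with MCAT 1.94-fold lower in PC3 than with androgen (adjusted p = 6.01e-06).

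**Figure D2:**
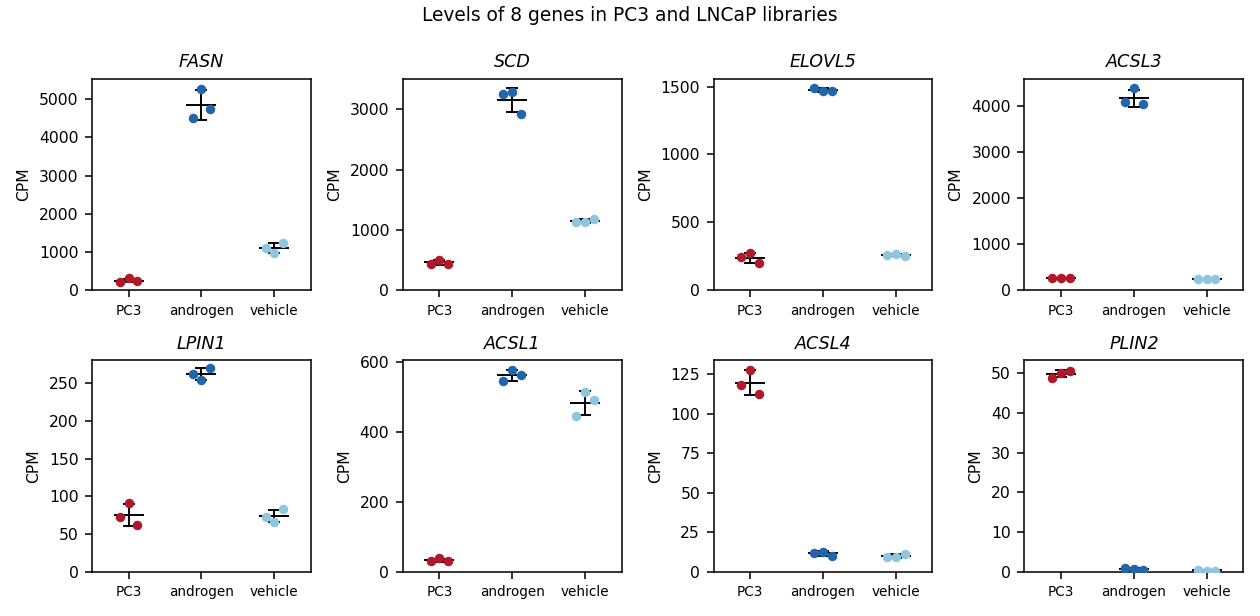
CPM (linear axis) of 8 genes in the 3 libraries of PC3, androgen-treated LNCaP and vehicle-treated LNCaP, with the mean as a bar and the SD as whiskers (n = 3). ELOVL5, ACSL3 and LPIN1 are higher with androgen than with vehicle or in PC3, while ACSL4 and PLIN2 are high in PC3.

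Desaturation was led by SCD, the enzyme that makes oleate and palmitoleate. Its CPM were 3257, 3290.5 and 2923 with androgen, 1136, 1126 and 1183 with vehicle and 437, 507 and 436 in PC3, without overlap. SCD rose 2.69-fold with androgen (adjusted p = 1.84e-11), and PC3 was 6.92-fold and 2.53-fold below the LNCaP groups. SCD5, its paralogue, had 13.3, 15.5 and 16.0 CPM with androgen and 29.8, 35.2 and 29.6 with vehicle. It fell by 1.11 on the log2 scale (SE 0.097, adjusted p = 2.69e-07), so that the paralogues were called in opposite directions. In PC3, at 9.93, 13.9 and 11.0 CPM, SCD5 overlapped the androgen-treated level and was 2.76-fold below vehicle.

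FADS1 and FADS2, which desaturate polyunsaturated chains, stood at 439 to 456 and 1889 to 2038 CPM with androgen, and were 1.96-fold and 1.84-fold above vehicle, short of the fold minimum. FADS2 was called lower in PC3 (4.80-fold and 2.57-fold) and FADS1 was not. FADS3, whose substrate includes sphingoid bases, was called higher in PC3 against vehicle (2.31-fold) and not against androgen (1.60-fold). Per kilobase, FADS2 made up 58.5% of FADS transcripts in the median PC3 library and 79.7% and 80.6% in the LNCaP groups.

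Of the 10 elongation genes, 7 were tested with androgen, where 3 rose and 1 fell (6.54% and 7.49% of all tested genes), and 9 between the lines. PC3 was lower than androgen-treated cells for 5 and higher for 2 (22.1% and 24.0% of all tested genes), and lower than vehicle-treated cells for 3 and higher for 2 (21.0% and 22.2%). ELOVL5, which extends polyunsaturated chains, had 1492, 1467 and 1465 CPM with androgen, 257, 263 and 252 with vehicle and 243, 274 and 199 in PC3. It rose 5.62-fold (log2 2.49, SE 0.038, adjusted p = 3.36e-14). PC3 and vehicle overlapped, and the 95% interval of their log2 difference ran from -0.39 to 0.12. ELOVL7, an elongase of long saturated chains, had 326, 290.1 and 288 CPM with androgen, 23.3, 21.7 and 20.0 with vehicle and 0.638, 0.495 and 0.748 in PC3. It rose 13.6-fold with androgen (adjusted p = 4.07e-14), and PC3 was lower (log2 -8.90 and -5.11). The PC3 level, 11 to 19 counts per library, was 0.164% to 0.248% of the androgen-treated level. The trace of LNCaP genes in these libraries, 0.564% to 0.632%, was taken against the mean of both LNCaP groups, so these percentages have different bases.

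ELOVL1, which extends saturated chains to very long ones, had 201, 176 and 197 CPM with androgen and 87.9, 74.5 and 85.9 with vehicle, and rose 2.26-fold (adjusted p = 1.34e-09). ELOVL6, which takes palmitate to stearate, had 28.3, 28.0 and 28.4 CPM with androgen, 58.3, 52.0 and 56.6 with vehicle and 7.90, 10.6 and 6.34 in PC3. Its fall with androgen was 2.01-fold (adjusted p = 2.39e-09), at the fold minimum, and the call was lost in 5 alternative analyses. ELOVL6 was 3.46-fold and 6.85-fold lower in PC3.

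ELOVL4, which makes very long polyunsaturated chains, was a PC3 transcript, at 5.38, 5.58 and 5.47 CPM against 0.139 to 0.447 with androgen and 0.320 to 0.496 with vehicle, a difference of 17.4-fold and 12.9-fold (adjusted p = 2.45e-06 and 5.50e-07). HACD1, a dehydratase of the elongation cycle first known from muscle, showed the same order with 6.30, 6.47 and 6.42 CPM in PC3 against 0.149 to 0.277 and 0.157 to 0.496. The LNCaP levels of ELOVL4 and HACD1 rested on 3 to 10 counts per library, and both passed the testing limit only through PC3. HACD3, the more abundant dehydratase in LNCaP, was 4.51-fold and 3.75-fold lower in PC3 and was not called with androgen. HACD2 and TECR, the reductase that ends each cycle, were not called in any comparison. ELOVL2, tested in none, had 59 to 92 counts per PC3 library, 29 to 38 with androgen and 2 to 3 with vehicle.

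**Figure D3:**
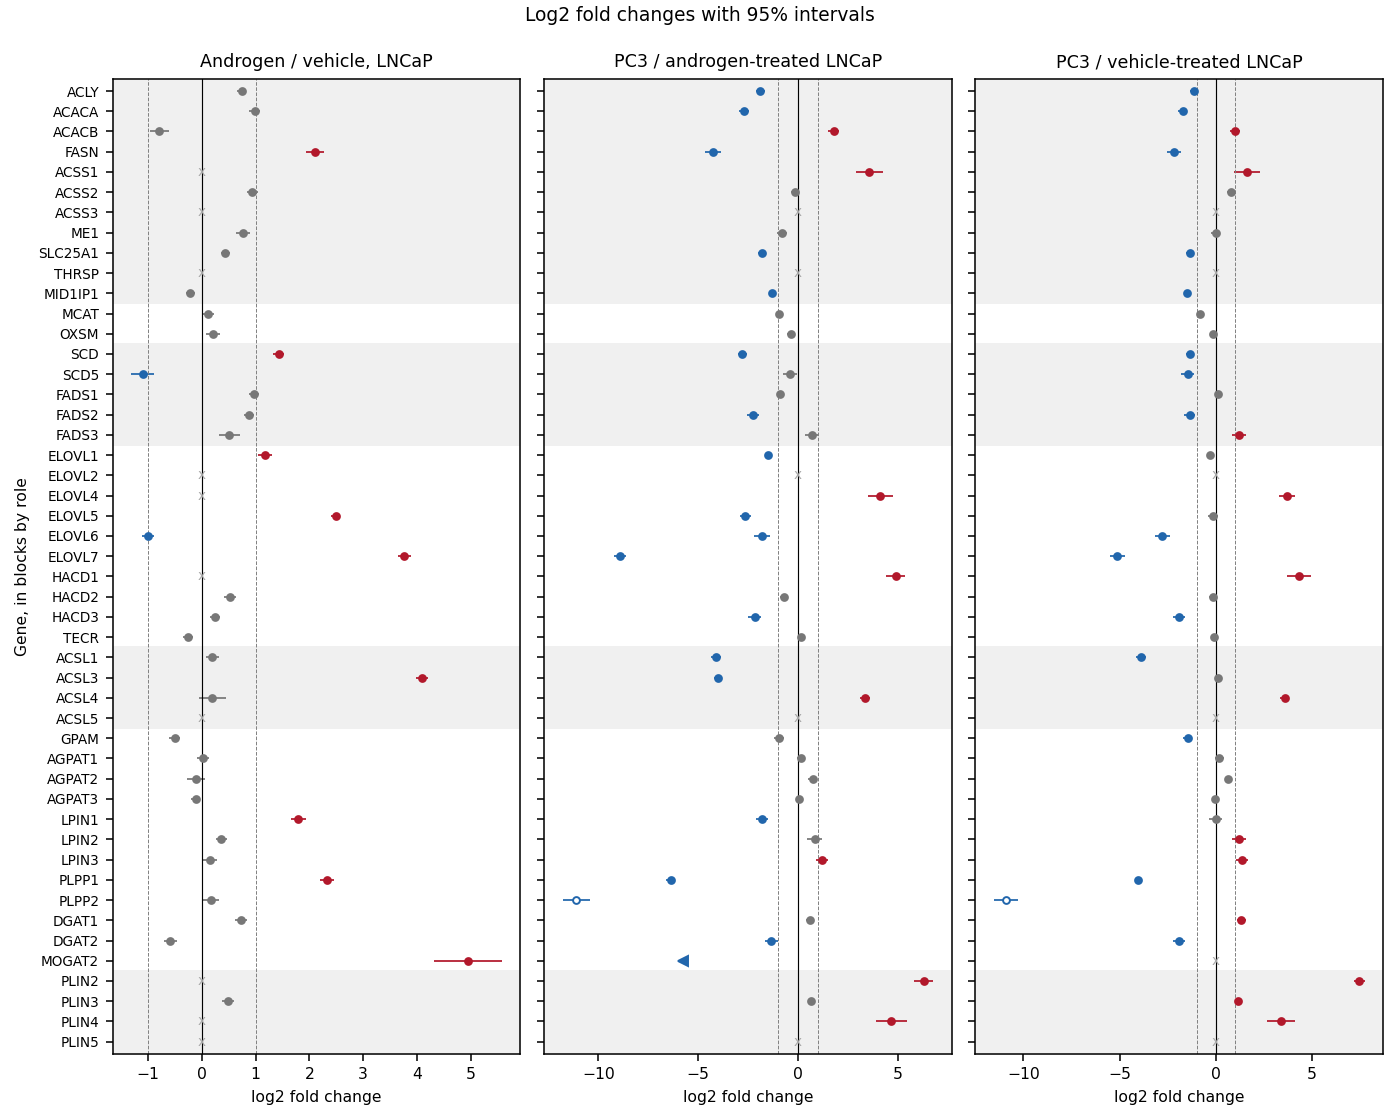
Log2 fold changes of the 48 genes in the 3 comparisons, with 95% intervals as bars, called higher in red, called lower in blue and not called in grey. A cross marks an untested gene, the triangle MOGAT2 at its bound against 3 counts, the open circles PLPP2 with 1 count in PC3, and dashed lines the 2-fold limits. ACSL3 and MOGAT2 have the largest rises with androgen, MOGAT2 having passed the testing limit only through androgen-treated cells.

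Each tested acyl-CoA synthetase was called between some of the groups, and none in all 3 comparisons. ACSL3, the synthetase of nascent lipid droplets (chr2:222860942-222944639, plus strand), had 4080.0, 4380.0 and 4043 CPM with androgen, 235, 235 and 246 with vehicle and 263, 261 and 261 in PC3. It rose 17.1-fold (95% interval of the log2 fold change 3.99 to 4.21, adjusted p = 5.32e-15), while PC3 and vehicle differed by 1.08-fold (adjusted p = 0.0899, 95% interval of the log2 difference -0.02 to 0.24). ACSL1, the broad-specificity synthetase, had 547, 577 and 563 CPM with androgen, 445, 513 and 491 with vehicle and 30.9, 37.9 and 29.9 in PC3. It was not called with androgen, and PC3 was 17.2-fold and 14.9-fold lower. ACSL4, which prefers arachidonate, was the reverse of ACSL1, with 118, 128 and 112 CPM in PC3, 12.1, 12.6 and 9.79 with androgen and 9.31, 9.17 and 11.0 with vehicle. The androgen and vehicle ranges of ACSL4 overlapped, and PC3 was 10.3-fold and 11.9-fold higher (adjusted p = 6.94e-08 and 3.69e-08).

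Per kilobase of exon, the leading synthetase was ACSL3 in androgen-treated cells and in PC3, and ACSL1 with vehicle. ACSL3 made up 76.8% of the ACSL transcripts in the median androgen-treated library, and ACSL1 made up 80.5% with vehicle, where ACSL3 was 18.1%. PC3 held 52.3% ACSL3, 34.0% ACSL4 and 13.6% ACSL1. The summed ACSL level was 376 ± 14.9 CPM per kilobase with androgen, 92.0 ± 5.46 with vehicle and 35.2 ± 1.43 in PC3 (SD, n = 3), and by the length of the longest transcript it was 638, 152 and 55.9, in the same order. ACSL5 had at most 18 counts in any library and was not tested.

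**Figure D4:**
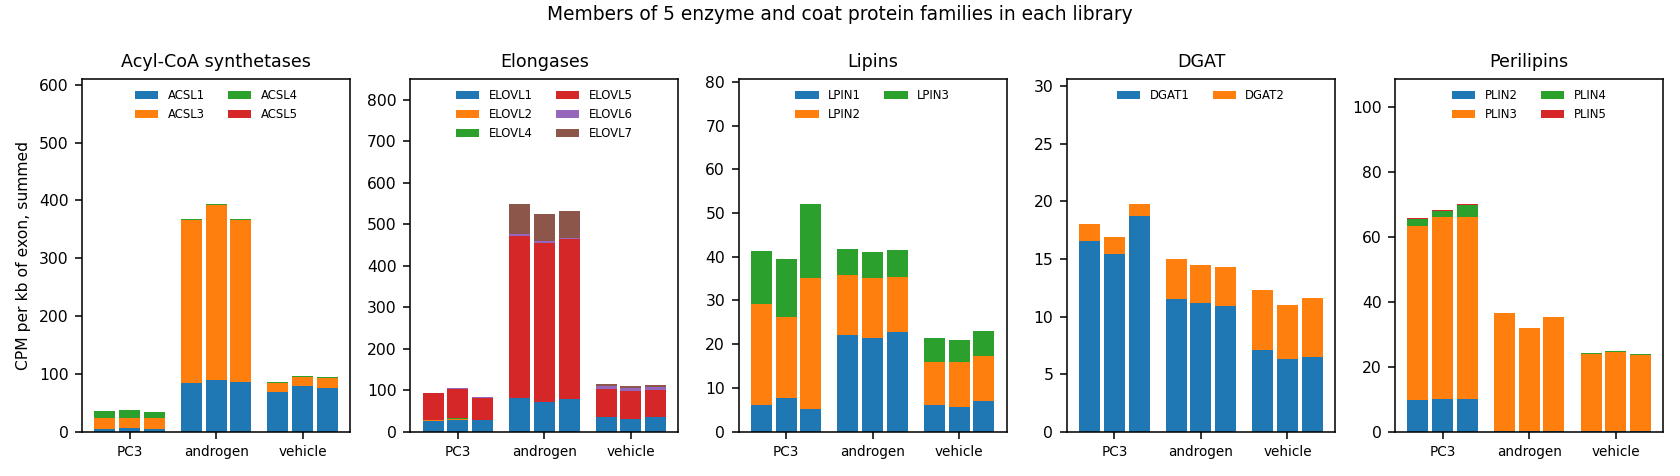
Stacked CPM per kilobase of exon (union of annotated exons) for 5 families, 1 bar per library, in PC3, androgen-treated and vehicle-treated LNCaP cells. ACSL3 and ELOVL5 fill most of the added height with androgen, and PLIN2 appears as a band in PC3 alone.

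Of the 12 genes of glycerolipid assembly, 3 rose with androgen, against 6.54% of all tested genes, and 9 were not called. Among the 3, MOGAT2 passed the testing limit only through androgen-treated cells. PC3 was lower than androgen-treated cells for 5 of 12 and higher for 1 (22.1% and 24.0% of all tested genes), and lower than vehicle-treated cells for 4 of the 11 tested and higher for 3 (21.0% and 22.2%). GPAM, the mitochondrial acyltransferase that opens the pathway, had 40.8 to 44.4 CPM with androgen, 57.5 to 61.0 with vehicle and 19.1 to 24.1 in PC3. It was 1.42-fold lower with androgen (adjusted p = 4.30e-07), under the fold minimum, and was called lower in PC3 against vehicle (2.73-fold). AGPAT1, AGPAT2 and AGPAT3, which add the next acyl chain, were not called in any comparison. Their largest difference was that of AGPAT2, 1.65-fold higher in PC3 than with androgen (adjusted p = 0.000227), and 18.7% of the 74-nt stretches of AGPAT1 occur elsewhere in the genome or in other genes' transcripts.

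LPIN1, a phosphatidate phosphatase that is also a transcriptional coactivator, had 262, 254 and 270.0 CPM with androgen, 72.7, 66.0 and 82.8 with vehicle and 72.1, 91.5 and 61.9 in PC3. It rose 3.47-fold (adjusted p = 5.62e-11), and PC3 overlapped vehicle. LPIN3 was higher in PC3 in both comparisons (2.32-fold and 2.60-fold), and LPIN2 was called against vehicle (2.31-fold) and not against androgen (1.77-fold), the former call being lost without PC3 replicate 3, where the difference was 0.99 on the log2 scale. Per kilobase, LPIN1 made up 52.7% of lipin transcripts in the median androgen-treated library, 28.7% with vehicle and 14.7% in PC3, where LPIN2 held 55.7%. By the length of the longest transcript, LPIN1 made up 67.3%, 42.6% and 24.2%. With vehicle the leading lipin depended on the length used, LPIN2 holding 46.2% by exons and 38.6% by the longest transcript.

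PLPP1, a lipid phosphate phosphatase at the plasma membrane, had 1187, 1328 and 1247 CPM with androgen, 242, 264 and 229.6 with vehicle and 15.7, 15.6 and 14.5 in PC3. It rose 5.02-fold with androgen (adjusted p = 2.79e-12), and PC3 was 82.8-fold and 16.3-fold lower, at 1.15% to 1.25% of the androgen-treated level. Of its 74-nt stretches, 20.6% occur elsewhere. Its relative PLPP2 had 37.3 to 44.4 CPM with androgen and 34.8 to 38.1 with vehicle, and in PC3 1 count in 3 libraries together. The ratio of androgen-treated LNCaP to PC3 was 3052 with a counting interval of 548 to 120556, and that of vehicle-treated LNCaP to PC3 was 2666 with an interval of 478 to 105282. MOGAT2, a monoacylglycerol acyltransferase of intestine, had 121, 163 and 133 counts with androgen, 5, 2 and 5 with vehicle and 0 in each PC3 library. It rose with androgen (log2 4.95, SE 0.29, adjusted p = 5.53e-09) from 2 to 5 counts per library, and PC3 was at least 54.2-fold lower than androgen-treated cells, against 3 counts per library. MOGAT2 passed the testing limit only through androgen-treated cells, so the filter set its direction and the calls add nothing to its levels.

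The final acylation is shared by DGAT1 and DGAT2, unrelated enzymes that complete triglyceride. DGAT1 had 68.5, 63.6 and 77.3 CPM in PC3, 47.4, 46.1 and 45.3 with androgen and 29.3, 26.0 and 26.8 with vehicle. DGAT2 had 11.4, 12.2 and 8.46 in PC3, 27.5, 26.5 and 26.3 with androgen and 41.3, 37.3 and 40.2 with vehicle, so that the enzymes were ordered oppositely across the groups. DGAT1 was 2.51-fold higher in PC3 than with vehicle (adjusted p = 4.14e-06), and DGAT2 was 2.53-fold and 3.76-fold lower in PC3. With androgen, DGAT1 was 1.66-fold higher and DGAT2 1.51-fold lower than with vehicle (adjusted p = 6.47e-08 and 5.96e-07), both under the fold minimum. Per kilobase, DGAT2 made up 42.9% of the pair with vehicle, 23.3% with androgen and 8.03% in PC3. At DGAT1, 19.0% of the reads lay on the opposite strand.

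The droplet coats were higher in PC3. PLIN2, the coat protein of droplets in most cells (chr9:19108375-19149290, minus strand), had 48.9, 50.1 and 50.6 CPM in PC3, 0.924, 0.588 and 0.348 with androgen and 0.314, 0.267 and 0.248 with vehicle. It was higher in PC3 by 6.29 (SE 0.21) and 7.45 (SE 0.12) on the log2 scale. Its 5 to 20 counts per LNCaP library were 0.497% to 1.85% of the PC3 level, beside a trace of 0.311% to 0.809% for PC3 genes in these libraries. In every LNCaP library the PLIN2 percentage exceeded the trace of that library. Androgen-treated replicate 1 was the highest on both measures (1.85% against 0.809%), and vehicle replicate 1 had 0.629% against 0.521%. The part of that trace in the LNCaP level of PLIN2 was not tested. PLIN3, a coat of small and nascent droplets, had 147, 154 and 154 CPM in PC3, 99.4, 86.8 and 96.4 with androgen and 65.4, 67.4 and 64.9 with vehicle, and was called higher in PC3 against vehicle (2.26-fold) and not against androgen (1.59-fold). It made up 81.4% of perilipin transcripts per kilobase in PC3 (69.8% by the length of the longest transcript) and 99.3% and 98.7% in the LNCaP groups.

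PLIN4, a coat known from adipocytes, had 15.1, 13.2 and 24.3 CPM in PC3 against 0.462 to 0.844 with androgen and 1.24 to 2.13 with vehicle, a difference of 25.6-fold and 10.5-fold. PLIN5, a coat of oxidative tissue, was not tested. It had 18 to 20 counts per PC3 library and 0 in all LNCaP libraries, so that PC3 was at least 5.42-fold and 5.05-fold higher. The summed perilipin level was 68.1 ± 2.21 CPM per kilobase in PC3, 34.6 ± 2.41 with androgen and 24.4 ± 0.547 with vehicle (SD, n = 3). All 3 tested coats were called higher in PC3 than with vehicle, and 2 of 3 higher than with androgen, where 22.2% and 24.0% of all tested genes were. PLIN2 and PLIN4 passed the testing limit only through PC3, so the filter set their direction and the count adds nothing to their levels.

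Set side by side, the calls of the members were sorted into patterns. How often all tested genes show these patterns was not counted, and the comparisons of the lines share the PC3 libraries. In the single comparisons, 22.1% and 21.0% of all tested genes were lower in PC3 and 24.0% and 22.2% higher. ELOVL4, HACD1, ACSS1, PLIN2 and PLIN4 passed the testing limit only through PC3, and ELOVL7 and PLPP2 only through LNCaP, so the filter set their direction. MOGAT2 passed the limit only through androgen-treated cells, and its direction was set likewise. PC3 was lower than both LNCaP groups for 14 members (ACLY, ACACA, FASN, SLC25A1, MID1IP1, SCD, FADS2, ELOVL6, ELOVL7, HACD3, ACSL1, PLPP1, PLPP2 and DGAT2) and higher than both for 8 (ACACB, ELOVL4, HACD1, ACSL4, ACSS1, LPIN3, PLIN2 and PLIN4), and 0 were called in opposite directions. ELOVL1, ELOVL5, ACSL3 and LPIN1 were lower in PC3 than in androgen-treated cells but were not called against vehicle. All 4 were called higher with androgen, which largely follows from this choice, made in the same libraries. FADS3, LPIN2, DGAT1 and PLIN3 were called higher, and SCD5 and GPAM lower, against vehicle and not against androgen. Of the 37 members tested in all 3 comparisons, 10 were not called in any. With the adjusted p-value alone, 25 members were higher and 8 lower with androgen, where 37.1% and 37.8% of all genes were, and 5 passed in neither direction. By the same measure 13 members were higher and 26 lower in PC3 than in androgen-treated cells, where 42.9% and 41.1% of all genes were. Against vehicle-treated cells 14 of 42 tested members were higher in PC3, 18 were lower and 10 passed in neither direction. There 10577 of all 12686 tested genes passed in either direction, and their split by direction was not counted.

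Of 49 further genes of the route listed for comparison, 48 were in the table. With androgen 5 of 36 tested rose and the other 31 were not called, where 6.54% of all tested genes rose and 7.49% fell. SCAP, the SREBP escort, had 80.2, 71.5 and 72.2 CPM with vehicle and 305, 294 and 295 with androgen, and rose (log2 1.97, adjusted p = 6.33e-13). INSIG1, the retention protein, had 171, 151 and 187 CPM with vehicle and 469, 483 and 471 with androgen, and rose likewise (log2 1.46, adjusted p = 2.23e-10). The largest rise was that of ACSM1, a medium-chain acyl-CoA synthetase (log2 3.44), and the others were PLPP3 and PLPP5. ACSM1 passed the testing limit only through androgen-treated cells, so the filter set its direction. SREBF1, which encodes SREBP-1, had 516 to 583 CPM with androgen, 392 to 447 with vehicle and 91.7 to 113 in PC3. Its androgen difference was 0.36 on the log2 scale (adjusted p = 1.68e-05), and it was lower in PC3 (log2 -2.39 and -2.01).

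Against androgen-treated cells, 10 of 38 tested further genes were higher in PC3 and 15 lower, where 24.0% and 22.1% of all tested genes were. Against vehicle-treated cells 9 of 38 were higher and 11 lower, where the shares of all genes were 22.2% and 21.0%. INSIG1 was lower in PC3 in both comparisons (log2 -3.50 and -2.03), and SCAP was called lower against androgen-treated cells (log2 -1.28) and not against vehicle (log2 0.70). MLXIPL, the carbohydrate-responsive factor ChREBP, had 5.71 to 7.20 CPM with vehicle, 2.87 to 4.07 with androgen and 0.678 to 0.854 in PC3. Its androgen difference of -0.99 was not called, and PC3 was lower than vehicle (log2 -3.13). HSD17B12, the reductase of the elongation cycle, was not called in any comparison (log2 0.18, 0.62 and 0.82). The largest fitted rise in PC3 was that of ME3, the mitochondrial NADP malic enzyme, with 310, 259 and 388 counts in PC3 and at most 1 in any LNCaP library. The largest fitted falls were those of ACSM1 against androgen-treated cells, with 1 count in the PC3 libraries together and 164 to 181 per androgen-treated library, and of CIDEB, a droplet and lipoprotein factor, against vehicle-treated cells (log2 -6.20). Between the lines, ME3 passed the testing limit only through PC3, and ACSM1, CIDEB and MLXIPL only through LNCaP, so the filter set their direction.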

How the data were processed

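RNA-seq libraries of PC3 (n = 3), androgen-treated LNCaP (n = 3) and vehicle-treated LNCaP (n = 3) were compared. The authors enriched poly(A) RNA, prepared libraries with KAPA RNA HyperPrep and deposited counts, whole numbers of reads per gene and library, without normalization. The submitters' processing notes name cutadapt 4.1, STAR 2.7.7a, UMI-tools 1.1.2 and GRCh38, and the annotation is not given in the sources used here. Of the 253944 deposited counts, 253944 equalled the forward-strand column of STAR's output, the other strand held 2.33% to 3.06% of the reads on genes and 20.3% to 25.4% of reads were on no gene.

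Genes above 3 CPM in at least 3 libraries of a comparison were tested with TMM factors and the quasi-likelihood F test of edgeR 4.0.16 (R 4.3.3) on the 6 libraries of each comparison, without the study's batch term, since its batches are not named. Benjamini-Hochberg adjustment covered every tested gene, and a call needed an adjusted p under 0.05 together with a change of 2-fold or more. Gene positions and exon lengths come from GENCODE 44 on GRCh38, and promoters from RefSeq on GRCh38.p14. Levels per kilobase divide CPM by the union of a gene's annotated exons. The share of 74-nt transcript stretches found elsewhere was counted for each member. On simulated counts the test recovered 198 of 200 changed genes among 11537 with 0 false calls for androgen, 193 of 200 among 12148 with 1 false call for PC3 against androgen-treated cells, and 193 of 200 among 12271 with 3 false calls for PC3 against vehicle-treated cells.

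The members and gene lists were chosen with earlier results of these data known. Every member is accounted for. Values are given for 15 members of the main route and, in each comparison, for the 10 called members with the largest log2 fold change, and untested members are given by counts. Among the further genes, SREBF1, SCAP, INSIG1, MLXIPL, HSD17B12 and, per comparison, the called gene that rose most and the one that fell most are given with values.

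Replicate numbers are shared by the groups. For same-numbered LNCaP libraries with and without androgen, the correlation of their deviations from the group mean (8144 genes) was 0.18, 0.25 and 0.27. For different numbers it was -0.30 to 0.09. Deviations within a group are tied to each other, so the values for different numbers depend on those for the same number. No label names a pairing, and whether these libraries are paired is not settled. The main fit leaves such a pairing out. As alternatives, scaling used DESeq2 size factors, testing used the DESeq2 1.42.0 Wald test or the likelihood ratio test of edgeR, the replicate number entered as a block, the filter was dropped or raised to 10 counts per library, the fold minimum was dropped, counts ignored strand, all 9 libraries entered 1 fit, each library was left out, and the longest transcript gave the length.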

Additional observations from a re-analysis of the deposited data

How the results depend on the processing

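A minimum of 10 counts in every library left 1 of the 11 members called with androgen untested, 6 of 27 against androgen-treated and 4 of 28 against vehicle-treated cells (MOGAT2, ACSS1, ELOVL4, HACD1, PLIN2 and PLPP2). Of the calls tested under every alternative, 9 of 10, 21 of 21 and 22 of 24 held throughout, those left untested held under the other alternatives, and no called member changed direction where it was tested. ELOVL6 with androgen was lost in 5 alternatives, ACACB against vehicle in 4 and LPIN2 against vehicle without PC3 replicate 3. ACACA with androgen was called in 3 alternatives (without the filter, androgen replicate 1 or vehicle replicate 3), FADS1 without vehicle replicate 3 and GPAM, lower in PC3 than with androgen, without PC3 replicate 3. ELOVL6 and ACACB lay at the fold minimum, and LPIN2, highest in PC3 replicate 3, had a log2 difference of 0.99 without it in place of 1.21. Without the filter on low counts, 2941 genes were called with androgen, 9147 for PC3 against androgen-treated and 8713 for PC3 against vehicle-treated cells, in place of 1641, 5773 and 5485. With the adjusted p-value alone the counts were 8763, 10530 and 10577, with 25 members higher and 8 lower for androgen and 13 higher and 26 lower in PC3 than in androgen-treated cells. By that measure 14 members were higher and 18 lower in PC3 than in vehicle-treated cells. All 9 libraries in 1 fit gave 4 members lower with androgen. With the 10-count minimum 5 members were higher in PC3 than in androgen-treated cells, 4 of the 8 called (ACACB, ACSL4, LPIN3 and PLIN4) and ELOVL2, and PLIN4 fell with androgen (log2 -1.29), both genes being untested there at 3 CPM. Leaving out 1 library, with the filter set to the smaller group, gave 1 to 2 members lower with androgen, the 1 arising without androgen replicate 1, vehicle replicate 1 or vehicle replicate 3.

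The difference of LPIN1 between PC3 and vehicle, 0.0018 on the log2 scale, turned to -0.0089 with DESeq2 size factors, -0.0086 with the Wald test, -0.0095 with the replicate block and -0.025 with all 9 libraries, and ran from -0.16 to 0.099 with libraries left out. That of ME1, -0.012, turned to 0.026 with at least 10 counts in every library and ran from -0.11 to 0.080. Neither difference was called. The replicate block gave 9 members higher and 2 lower with androgen, 8 and 19 for PC3 against androgen-treated cells, and 12 and 16 against vehicle-treated cells, and changed no member's call. For same-numbered PC3 and LNCaP libraries, the correlations of deviations were -0.21 to 0.06 with androgen and -0.23 to 0.08 with vehicle. The cause of these changes was not tested where none is given. The depth limits PLPP2, MOGAT2, THRSP and PLIN5 between the lines to ratios or bounds.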
